A study of Schmidtea mediterranea with 48 samples.

Results

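Control worms of the planarian Schmidtea mediterranea were compared between day 18 and day 12 of an RNA interference (RNAi) course, with 4 whole-worm libraries on each day. These 8 libraries are part of a set of 48, which covers RNAi against zfp1, sox8, pax5 or the control gene unc22, on days 6, 12 and 18, with 4 libraries per combination. All worms came from the clonal line CIW4, whose animals descend from a single founder, and all ate bacteria of strain HT115 making double-stranded RNA, mixed into calf liver paste, in 3 feedings spaced 3 days apart. Worms of both days therefore carried the control RNAi, and no untreated or unfed worms were analysed here. The comparison covers the 22667 of 28413 measured features (79.8%) that averaged at least 0.5 RPKM over the 48 libraries. RPKM divides the reads of a feature by its length in kilobases and by the depth of its library. The feature just inside that threshold, at a mean of 0.50005 RPKM, stood at 0.264 ± 0.122 RPKM on day 18 and 0.547 ± 0.202 RPKM on day 12 (SD, n = 4 libraries a day). The feature just outside, at a mean of 0.49998 RPKM, stood at 0.37 ± 0.164 RPKM on day 18 and 0.69 ± 0.656 RPKM on day 12 (SD, n = 4).

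Planarians replace the cells of all their tissues throughout adult life from neoblasts, a population of dividing stem cells that contains pluripotent members. Feeding changes the rate of neoblast division and the size of the animal, and a worm that goes without food shrinks by losing cells while its body plan stays in proportion. The gene unc22 is a nematode gene for a very large muscle protein, and its double-stranded RNA is a usual control in planarian feeding experiments because it has no intended target in the worm. The zfp1, sox8 and pax5 genes code for transcription factors, of which zfp1 is known in planarians as a zinc finger gene that the epidermal lineage needs. Between day 12 and day 18 the time on the RNAi course, the time since the last meal and the day of sampling move together and cannot be told apart. In whole worms, fewer cells of a type and less RNA per cell cannot be told apart either.

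The 4 day 18 libraries held 15523900 to 24735177 reads assigned to features, and the 4 day 12 libraries held 19136883 to 22122920. On the first principal component of the 12 unc22 libraries, which held 37.5% of the variance, the day 18 libraries lay at 20.3 to 31.2, the day 12 libraries at 0.7 to 3.4 and the day 6 libraries at -28.5 to -23.6. Replicates 1 and 4 of day 18 lay farthest out, at 31.2 and 27.4, and were also the shallowest libraries of that day, at 15523900 and 16493265 reads. The part of depth in the results was not tested beyond the counts given below without these replicates and with the libraries of both days brought to 15523900 reads. The labels do not say whether a replicate was a separate pool of worms, so the p-values here speak to the spread among libraries alone, part of which may be technical. Feature identifiers are not paired with gene names in the sources used here, so neither the targeted genes nor cell type markers were looked up, and features are named by their SMED30 identifiers.

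In the deposited values more features were higher than lower on day 18 of unc22 RNAi, a balance that some other scalings of the libraries turned round, and most changes were small. By limma's moderated test with Benjamini-Hochberg adjustment (adjusted p under 0.05), 1331 features were higher on day 18 (5.87% of the 22667 tested) and 810 were lower (3.57%), 2141 in all (9.45%). Among the 1331, 617 (46.4%) were higher by less than 1.2-fold, 645 (48.5%) by 1.2- to 1.5-fold, 50 by 1.5- to 2-fold and 19 (0.0838% of those tested) by at least 2-fold. Among the 810, 349 (43.1%) were lower by less than 1.2-fold, 324 (40%) by 1.2- to 1.5-fold, 129 by 1.5- to 2-fold and 8 (0.0353% of those tested) by at least 2-fold. These folds are on the scale of log2(RPKM + 0.5), which understates the change of low features, and on that scale the median of all tested features was -0.00085. Without replicates 1 and 4 of day 18, 293 features were called higher and 145 lower. Leaving out replicate 1 alone gave 712 and 360. With the libraries of both days brought to 15523900 reads, an unplanned alternative, 1124 features were called higher and 651 lower. Of these, 1059 and 583 were among the original calls.

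The balance of rises and falls can be set beside that under other scalings. As deposited, 62.2% of the called features were higher on day 18. Median ratio scaling gave 1313 higher and 862 lower (60.4% higher), and quantile normalization 1257 higher and 1331 lower (48.6% higher). Removing the factor that the authors applied between libraries, which was 0.9715 to 0.9887 on day 18 and 1.0065 to 1.0259 on day 12, gave 939 higher and 1666 lower (36% higher), with the median of all features shifted to -0.046. Quantile normalization called 1160 of the 1331 higher features and 745 of the 810 lower ones again in the same direction. All 4 libraries of day 18 lay above all 4 of day 12 in 10.8% of the tested features and below them in 8.52%, 4369 features in all (19.3%). Among these were 1226 of the 1331 called higher and 722 of the 810 called lower.

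**Figure D1:**
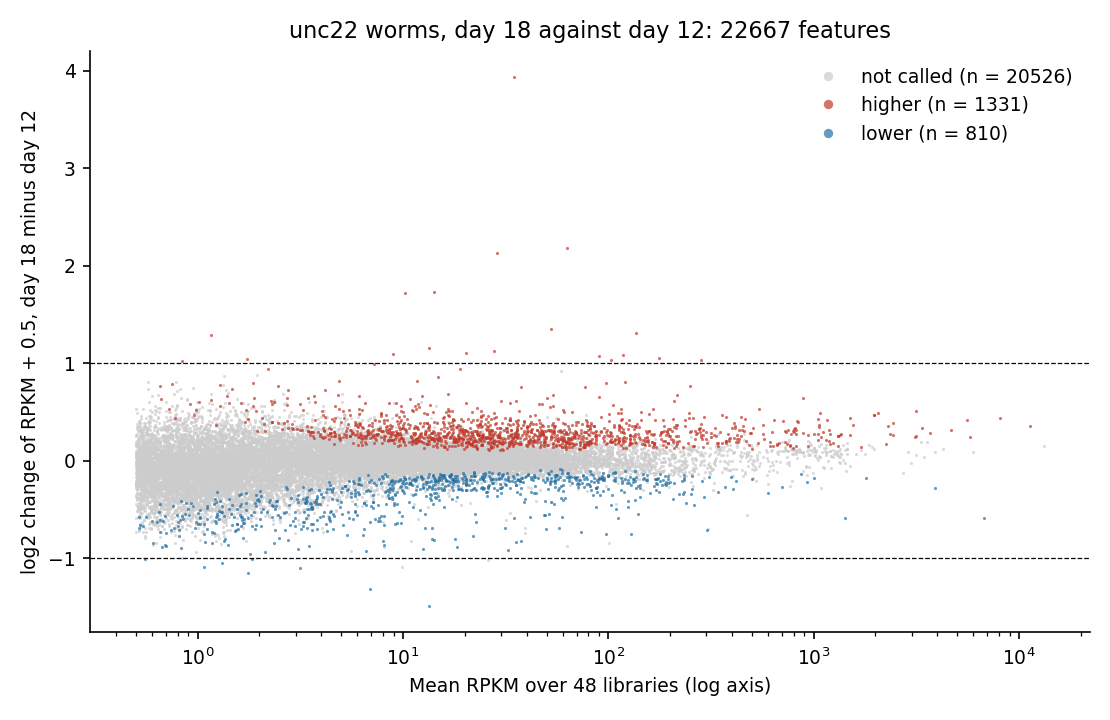
Change of each of the 22667 tested features in unc22 worms, as the log2 change of RPKM + 0.5 on day 18 minus day 12, against the mean RPKM over 48 libraries (log axis). Red points are the 1331 features called higher, blue points the 810 called lower, and dashed lines mark a 2-fold change; 1 feature stands far above the rest at 3.93, and most called features lie close to 0.

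SMED30022734 had the largest rise. It stood at 25.9, 34.4, 27.5 and 21.9 RPKM in the 4 unc22 libraries of day 18, against 1.53, 1.51, 1.10 and 1.12 RPKM in those of day 12, where it had 9 to 13 reads per library. Every day 18 library was far above every day 12 library, and the ratio of the means was 20.8 (27.4 ± 5.2 against 1.32 ± 0.238 RPKM, SD, n = 4). The log2 change was 3.93 (SE 0.36, adjusted p = 1.82e-09 by limma). On day 6 the unc22 libraries held 1.37 ± 0.614 RPKM (SD, n = 4), close to day 12, and the earlier interval gave a log2 change of 0.01 (SE 0.36, adjusted p = 0.993).

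The second largest rise was that of SMED30013580, at 87.2, 82.6, 67.5 and 48.1 RPKM on day 18 against 20.0, 17.5, 14.2 and 9.96 RPKM on day 12. The days did not overlap, although the lowest and the highest library of a day differed by a wide margin. Its log2 change was 2.18 (SE 0.27, adjusted p = 9.41e-07 by limma). On day 6 it stood at 17.4, 18.5, 46.0 and 27.0 RPKM, so 2 day 6 libraries were above and 2 were within the day 12 range. The step between day 12 and day 6 did not pass the test (log2 change -0.73, SE 0.27, adjusted p = 0.0514 by limma). The lengths implied by the deposited values were 407 bases for SMED30022734 and 355 bases for SMED30013580.

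The largest falls were in short features with few reads. SMED30027656 stood at 1.85, 2.39, 1.92 and 3.48 RPKM on day 18, from 6 to 12 reads, against 8.21, 9.04, 9.40 and 4.46 RPKM on day 12. Replicate 4 was the highest library of day 18 and the lowest of day 12, and the days still did not overlap. The log2 change was -1.49 (SE 0.25, adjusted p = 5.95e-05 by limma). This feature had already fallen over the earlier interval, with 27.0 ± 8.66 RPKM on day 6 (SD, n = 4) and a log2 change of -1.72 between day 12 and day 6 (SE 0.25, adjusted p = 1.52e-06 by limma).

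SMED30021619 stood at 3.70, 4.18, 2.88 and 1.45 RPKM on day 18, from 5 to 21 reads, against 8.21, 6.84, 8.56 and 7.98 RPKM on day 12. All 4 day 18 libraries lay below all 4 of day 12, and the log2 change was -1.31 (SE 0.2, adjusted p = 2.43e-05 by limma). It had also fallen between day 6, at 14.6 ± 3.23 RPKM (SD, n = 4), and day 12 (log2 change -0.82, SE 0.2, adjusted p = 0.0029 by limma). Both of these falling features had an implied length of 215 bases. How reads that align to several features were counted is not given in the sources used here, so features with near-identical copies are uncertain.

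**Figure D2:**
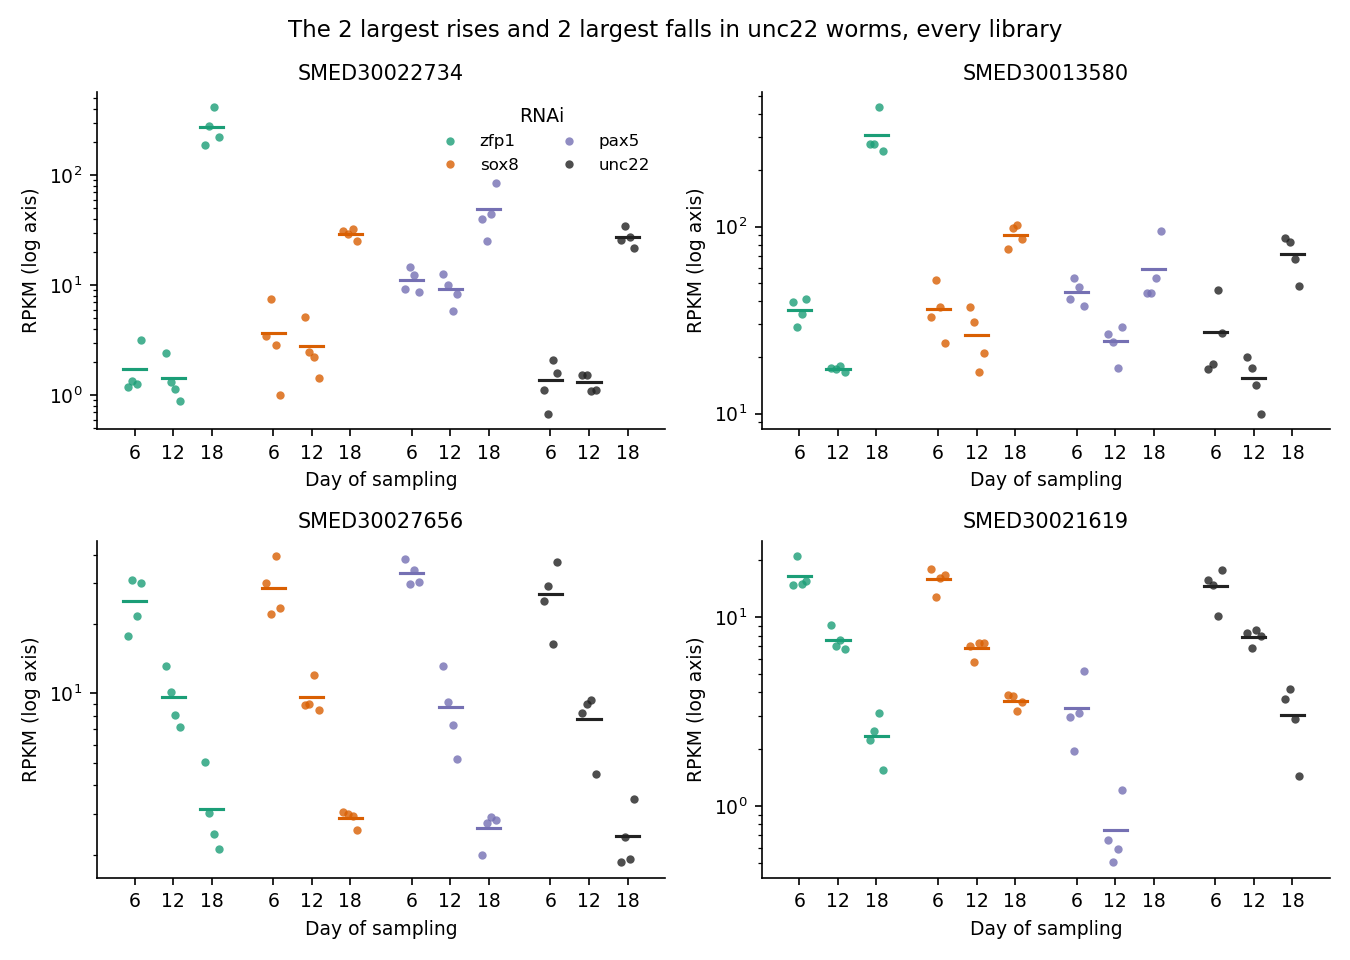
RPKM (log axis) of the 4 named features in every library by RNAi and day of sampling; dots are single libraries and bars are means of 4 libraries. Both rising features are higher on day 18 than on day 12 in all RNAi groups, most of all under zfp1 RNAi. In pax5 worms the day 18 libraries of SMED30013580 overlap with those of day 6. Both falling features decline over the 3 days. SMED30021619 has 0 reads in the 4 pax5 day 18 libraries, which a log axis cannot show.

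The same interval under the 3 knockdowns takes its group means from 24 other libraries, although the estimate of spread in the test is shared by all 48. SMED30022734 was higher on day 18 under each of them, at 277 ± 99.4 RPKM against 1.44 ± 0.668 RPKM on day 12 under zfp1 RNAi (SD, n = 4, log2 change 7.15). Under sox8 RNAi it stood at 29.5 ± 3.19 against 2.82 ± 1.64 RPKM (log2 change 3.29), and under pax5 RNAi at 49.1 ± 25.8 against 9.22 ± 2.83 RPKM (log2 change 2.26; SD, n = 4 each). All 3 changes passed the limma test. Compared with unc22, the change was larger under zfp1 RNAi by 3.22 (95% interval 2.19 to 4.25, adjusted p = 1.25e-05 by limma). The difference under sox8 RNAi was -0.65 (95% interval -1.68 to 0.38) and that under pax5 RNAi -1.67 (95% interval -2.70 to -0.64), neither past the adjusted threshold (adjusted p = 0.998 and 0.476 by limma). In pax5 worms the feature was already at 11.3 ± 2.86 RPKM on day 6 (SD, n = 4), above every unc22 library of days 6 and 12.

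SMED30013580 rose under each knockdown as well. Its day 18 level was 310 ± 83.5 RPKM under zfp1 RNAi, against 17.3 ± 0.557 RPKM on day 12 (SD, n = 4, log2 change 4.09). The log2 change was 1.81 under sox8 RNAi and 1.21 under pax5 RNAi. Under pax5 RNAi the day 18 libraries held 44.1 to 94.9 RPKM, against 17.5 to 29.2 on day 12 and 37.4 to 52.8 on day 6. Relative to unc22 the zfp1 change was larger by 1.90 (95% interval 1.14 to 2.67, adjusted p = 4.04e-04 by limma), while the sox8 difference of -0.37 (-1.14 to 0.40) and the pax5 difference of -0.97 (-1.74 to -0.21) did not pass.

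The falls of SMED30027656 were of nearly equal size under the 4 RNAi treatments, with log2 changes of -1.49 under zfp1, -1.57 under sox8 and -1.50 under pax5 RNAi, against -1.49 under unc22. The differences from unc22 were 0, -0.07 and -0.01, each with a 95% interval reaching about 0.70 to either side. SMED30021619 fell by 1.53 on the log2 scale under zfp1 RNAi and by 0.84 under sox8 RNAi, both past the limma threshold, with differences from unc22 of -0.22 (95% interval -0.80 to 0.36) and 0.47 (-0.11 to 1.05). Under pax5 RNAi it was scarcely detected, with 0 reads in the 4 day 18 libraries and 2 to 4 reads in each of the 4 day 12 libraries. A floor of 3 reads corresponds to 0.623 to 1.5 RPKM in those day 18 libraries, against a day 12 mean of 0.744 ± 0.324 RPKM (SD, n = 4), so no fold is given there.

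The 19 features that rose at least 2-fold in unc22 worms ranged from 1.36 to 415 RPKM in their day 18 means and had implied lengths of 304 to 2034 bases. They made up 0.205 ± 0.0386% of the summed RPKM of the table on day 18 and 0.0947 ± 0.0127% on day 12 (SD, n = 4). In the knockdown libraries, 18 of the 19 were called higher on day 18 under zfp1 RNAi, where 11.4% of all tested features were. Under sox8 RNAi 18 of the 19 were called higher, where 7.10% of all tested features were, and under pax5 RNAi 13 were higher and 1 lower, where 6.85% and 4.72% of all tested features were. Their median log2 change was 2.411 under zfp1, 0.994 under sox8 and 1.243 under pax5 RNAi, against 1.127 under unc22, the value that chose them. Under zfp1 RNAi their summed share was 0.422 ± 0.112% on day 18 and 0.0714 ± 0.0106% on day 12 (SD, n = 4).

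The features with falls of 2-fold or more in unc22 worms, 8 in all, were lower in level. In 4 of them the day 12 mean was under 2 RPKM, the median number of reads was 4 to 33.5, and 3 had a library with at most 3 reads. They were called lower under zfp1 RNAi in 4 cases, where 12.3% of all tested features were, under sox8 RNAi in 4, where 4.48% were, and under pax5 RNAi in 3, where 4.72% were. The other 4 were not called in any knockdown, and the number of such features is sensitive to the pseudocount, with 41 at 0.1 RPKM and 2 at 1 RPKM.

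Calls were more frequent among abundant features. Of the 597 features with a mean of at least 200 RPKM, 172 (28.8%) were called higher and 33 (5.53%) lower on day 18, a lean that stayed with median ratio scaling (173 higher and 33 lower) and without the authors' factor (168 and 94) and turned round with quantile normalization (121 and 138). Of the 6855 features between 0.5 and 2 RPKM, whose median was 13.5 reads, 28 (0.408%) were called higher and 120 (1.75%) lower. The share called higher grew in each class of level between these, while the share called lower was largest, at 9.4%, between 50 and 200 RPKM. The median feature called higher had a mean of 30.4 RPKM and the median feature called lower 14.3 RPKM, against 6.13 RPKM over all tested features. Depth differs between these classes, and its part in the shares was not tested.

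Long features leaned the other way. Among the 936 features with an implied length of at least 4000 bases, 16 (1.71%) were called higher and 111 (11.9%) lower on day 18, and their median log2 change was -0.053. Between 1000 and 2000 bases, 510 of 7404 (6.89%) were higher and 254 (3.43%) lower. Over the same days in the knockdown libraries, 2.78% of the longest class were called higher and 8.87% lower under sox8 RNAi, where 7.10% and 4.48% of all tested features were. Under pax5 RNAi these shares were 3.1% and 12.1%, where 6.85% and 4.72% of all tested features were. Under zfp1 RNAi they were 7.05% and 20.2%, where 11.4% and 12.3% of all tested features were. In zfp1 worms lower calls outnumbered higher ones also under 500 bases (337 against 223) and between 500 and 1000 bases (700 against 644). They did so between 2000 and 4000 bases too (600 against 566), but not between 1000 and 2000 bases (960 against 1096). Set against the mean of day 12, the median over the longest class was -0.096, -0.022, -0.037 and -0.058 in unc22 day 18 replicates 1 to 4, and -0.015 to 0.019 in the day 12 libraries. All 4 day 18 libraries were below all 4 of day 12, and the shallow replicates 1 and 4 were the lowest. Without replicate 1 of day 18 the longest class held 8 higher and 35 lower calls, without replicate 4 it held 8 and 71, and without both it held 5 and 14. With the libraries of both days brought to 15523900 reads it held 13 and 101, and with quantile normalization 12 and 128. No measure of RNA integrity was at hand, so its part in this tilt was not tested.

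**Figure D3:**
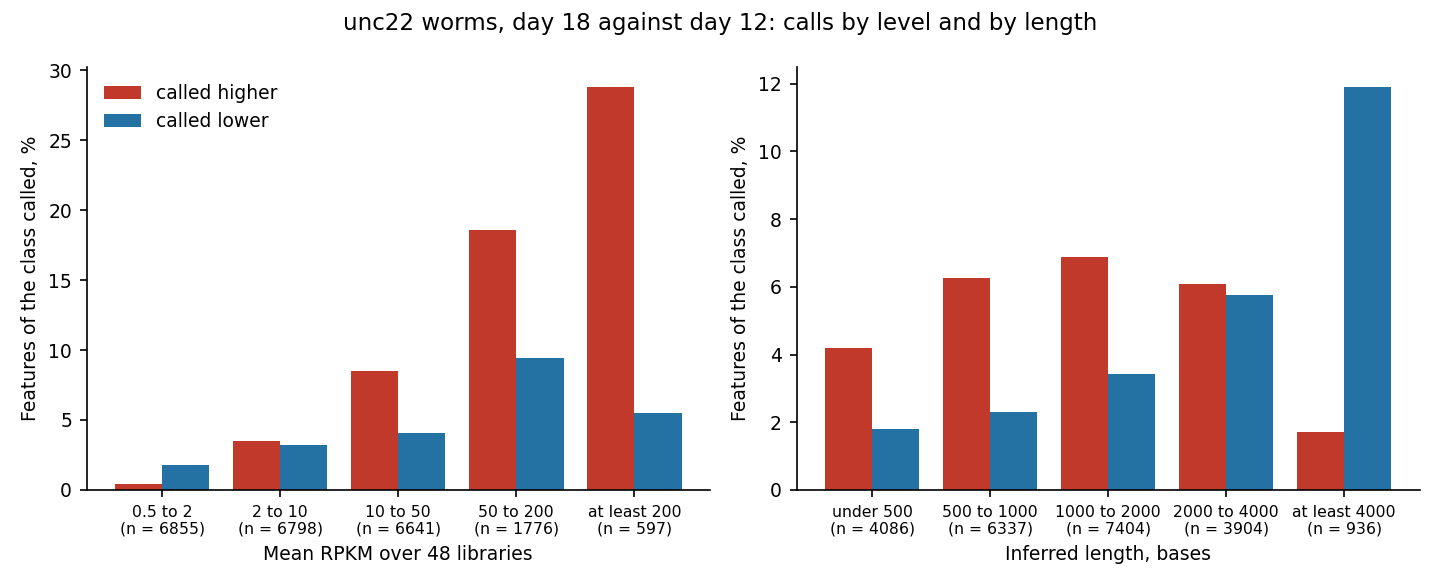
Share of tested features called higher (red) or lower (blue) on day 18 against day 12 in unc22 worms, by class of mean RPKM over 48 libraries (left) and by class of implied length in bases (right), with the number of features in each class. Calls of higher features climb to 28.8% at 200 RPKM and above, and in the class of at least 4000 bases lower calls (11.9%) outnumber higher ones (1.71%); with quantile normalization the most abundant class held 121 higher and 138 lower calls.

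The RNA of the worms was also more concentrated in a few features on day 18. The 100 most abundant features of each library took 28.61 ± 0.12% of the summed RPKM on day 18 and 27.04 ± 0.087% on day 12 in unc22 worms (SD, n = 4), a difference of 1.57 percentage points. The lowest day 18 library, at 28.51%, was above the highest day 12 library, at 27.1%. The same measure was higher on day 18 under zfp1 RNAi (29.21 against 27.42%), sox8 RNAi (29.2 against 27.75%) and pax5 RNAi (29.72 against 28.38%). Each of these 4 comparisons gave p = 0.0286 in an exact two-sided permutation test, the smallest value that 4 against 4 libraries allow, and p = 0.0286 after adjustment over the 4.

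Most features called in control worms were called in the same direction over the same days in at least 1 knockdown. Of the 1331 higher features, 871 (65.4%) were called higher under sox8 RNAi (7.10% of all tested features), 821 (61.7%) under pax5 RNAi (6.85%) and 727 (54.6%) under zfp1 RNAi (11.4%). Calls in the opposite direction numbered 0, 11 (0.826%) and 74 (5.56%), where 4.48%, 4.72% and 12.3% of all tested features were called lower. In all 3 knockdowns 471 of the 1331 (35.4%) were called higher, where 560 of all 22667 tested features (2.47%) were. In none of the knockdowns were 211 (15.9%) called higher, against 82.9% of all tested features. With each comparison fitted on its own 8 libraries, 518 features were called higher under all 4 RNAi treatments and 220 lower. The median log2 change of the 1331 was 0.24 under sox8, 0.223 under pax5 and 0.192 under zfp1 RNAi, against 0.271 under unc22, which chose them, and the medians over all tested features were -0.00182, 0.00459 and -0.0107 in the 3 knockdowns.

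The falling features can be read in the same way. Of the 810, under pax5 RNAi 414 (51.1%) were called lower, under sox8 RNAi 390 (48.1%) and under zfp1 RNAi 324 (40%), where 4.72%, 4.48% and 12.3% of all tested features were. Opposite calls numbered 0 under pax5, 0 under sox8 and 27 (3.33%) under zfp1 RNAi, where 6.85%, 7.10% and 11.4% of all tested features were called higher. In all 3 knockdowns 185 (22.8%) were called lower, against 314 of all tested features (1.39%). In none of the knockdowns were 241 (29.8%) called lower, against 83.7% of all tested features. Their median log2 change was -0.223 under pax5, -0.224 under sox8 and -0.191 under zfp1 RNAi, against -0.293 under unc22. Across all 22667 features, Pearson's correlation of the unc22 change with the knockdown change was 0.552 for sox8, 0.531 for pax5 and 0.378 for zfp1; these pairs share the features and their depth but no library.

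**Figure D4:**
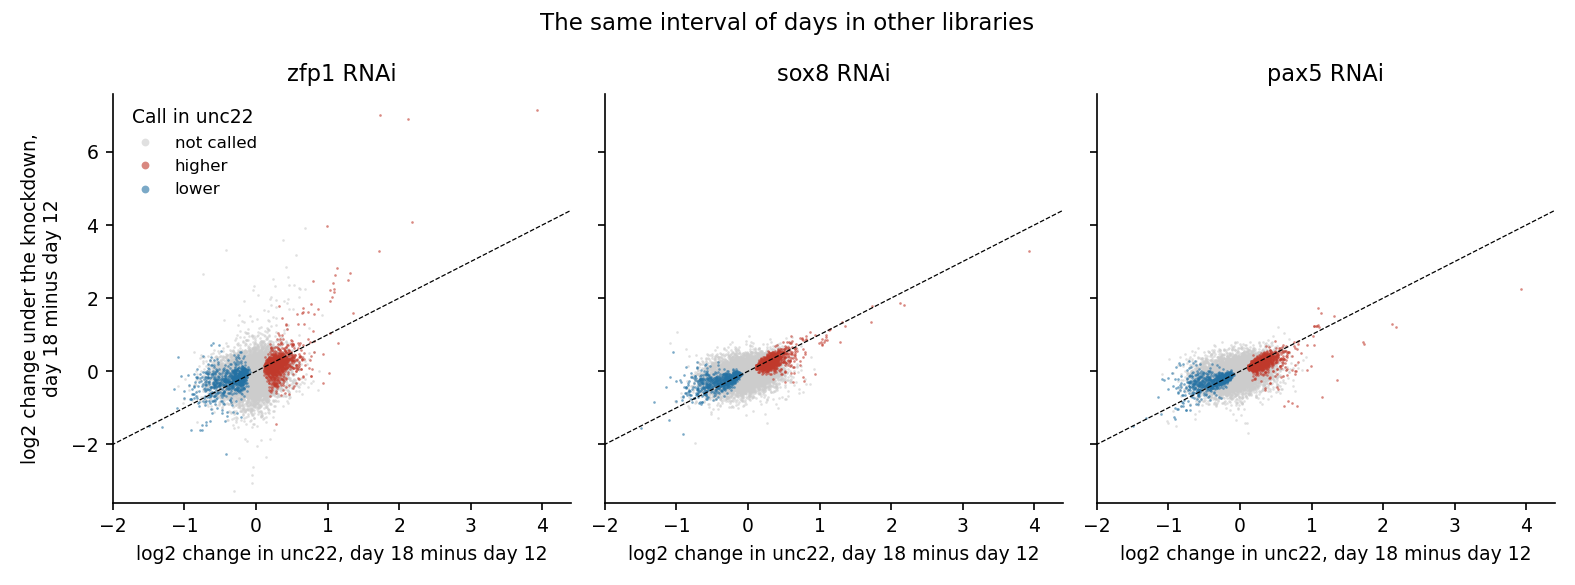
Log2 change of RPKM + 0.5 on day 18 minus day 12 under each knockdown (vertical) against that in unc22 worms (horizontal), 1 point per tested feature, with a dashed line of equal change. Red and blue points are the features called higher and lower in unc22 worms; they follow the line under sox8 and pax5 RNAi, with a few rising features below it under pax5, and spread more widely under zfp1 RNAi, where several rise far above it.

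Summed over features, the called features took a larger or smaller share of the table on day 18 under every RNAi, by amounts whose likeness was not tested. The 1331 higher features took 28.4 ± 0.293% of the summed RPKM on day 18 of unc22 RNAi and 24.3 ± 0.228% on day 12 (SD, n = 4). In the knockdown libraries, which entered that choice only through the shared spread and the minimum level, they took 29.1 ± 0.281% and 25.2 ± 0.183% under zfp1, 29 ± 0.22% and 25.1 ± 0.372% under sox8, and 29.3 ± 0.257% and 25.4 ± 0.184% under pax5 RNAi on days 18 and 12 (SD, n = 4 each). The 810 lower features took 4.72 ± 0.143% on day 18 and 6.21 ± 0.145% on day 12 in unc22 worms. On those days they took 5.01 ± 0.114% and 6.31 ± 0.181% under zfp1, 4.77 ± 0.0765% and 6.16 ± 0.157% under sox8, and 4.96 ± 0.142% and 6.33 ± 0.101% under pax5 RNAi. In each knockdown the 4 libraries of day 18 did not overlap with the 4 of day 12 on either sum.

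**Figure D5:**
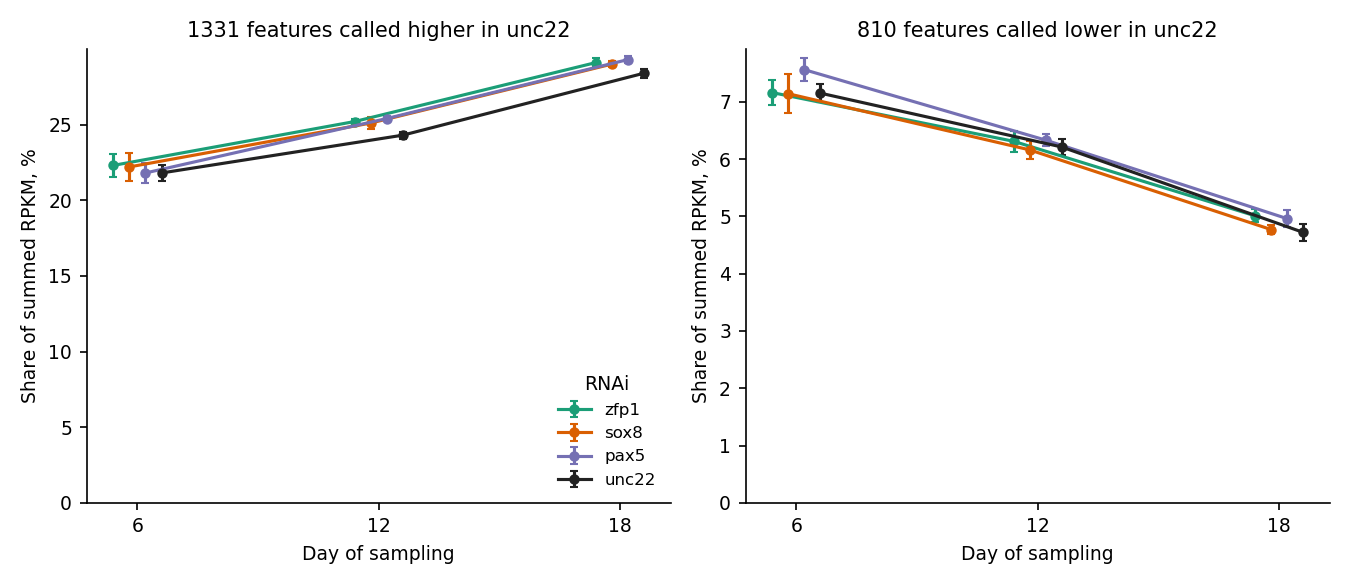
Percentage of the summed RPKM of the table taken by the 1331 features called higher (left) and the 810 called lower (right) in unc22 worms, by day of sampling and RNAi; points are means of 4 libraries and bars are SD, shifted sideways for legibility. The higher features climb over the 3 days to 28.4% in unc22 worms and the lower features decline to 4.72%, and the knockdown groups run close to the unc22 line.

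The change between these days was also tested for a difference between each knockdown and unc22. For sox8 no feature passed (0 of 22667 by limma, 882 at an unadjusted p under 0.05, and 0 by limma-voom, which models the whole reads recovered from the values). The 95% interval of the sox8 difference included 0 for 21785 of the 22667 tested features. Both called sets were chosen by the unc22 change, which enters this difference. In them the interval included 0 for 1256 of the 1331 higher features and for 745 of the 810 lower ones. The median half-width was 0.19 and 0.21 on the log2 scale. These half-widths are close to the smaller changes themselves, whose lower quartile among the 1331 was 0.209, so differences of that size were not detectable for many of these features. The differences under zfp1, sox8 and pax5 RNAi all use the same unc22 libraries.

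For pax5, 41 features differed (0.181% of those tested; 18 by limma-voom), and each of the 41 changed less, or fell more, under pax5 RNAi. Of the 1331 features higher in unc22 worms, 15 (1.13%) were among them. Their choice by the unc22 change, which the difference subtracts, leans them that way by itself. SMED30010453 and SMED30019249 had the largest such differences. Under pax5 RNAi SMED30010453 stood at 0.862, 0.909, 0.984 and 1.45 RPKM on day 18, from 4 to 13 reads, against 2.99, 2.09, 1.28 and 1.84 RPKM on day 12, whereas under unc22 it stood at 25.9, 22.9, 18.8 and 19.7 RPKM on day 18 against 10.3, 9.79, 7.02 and 11.3 RPKM on day 12. It thus rose in control worms with no overlap between days (log2 change 1.15, SE 0.19, adjusted p = 5.34e-05 by limma), and in pax5 worms it fell (log2 change -0.69, SE 0.19, adjusted p = 0.0118 by limma), where 1 library of day 18 lay within the day 12 range. The difference was -1.84 (SE 0.27, adjusted p = 4.02e-05 by limma) and in limma-voom it was -2.01 and did not pass (adjusted p = 0.372). In unc22 worms the same feature was lower on day 12 than on day 6, at 15.2 ± 3.48 RPKM (SD, n = 4, log2 change -0.63, adjusted p = 0.0155 by limma).

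SMED30019249 stood at 5.06 ± 0.506 RPKM on day 18 and 17.4 ± 1.59 RPKM on day 12 under pax5 RNAi, and at 34.1 ± 3.32 and 31.6 ± 2.44 RPKM under unc22 (SD, n = 4 each). The difference was -1.80 (SE 0.12, adjusted p = 2.29e-13 by limma), and the change in unc22 worms of 0.11 did not pass (SE 0.09, adjusted p = 0.498 by limma).

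For zfp1, 2084 features differed from unc22 (9.19% of those tested), 673 with a higher change under zfp1 RNAi (2.97%) and 1411 with a lower one (6.22%). Among the 1331 higher features of control worms, 61 (4.58%) changed more and 169 (12.7%) changed less under zfp1 RNAi. The 1331 were chosen by their unc22 change, which this difference subtracts, so the choice alone leans them towards changing less. Among the 19 that rose at least 2-fold, 15 changed more and 1 less. SMED30004187 and SMED30029247 are 2 of those 15. Under zfp1 RNAi SMED30004187 stood at 85.7, 111, 274 and 52.0 RPKM on day 18, against 0.305, 0.575, 0.324 and 0.226 RPKM on day 12, from 1 to 5 reads. In unc22 worms it stood at 5.20, 6.47, 7.62 and 1.57 RPKM on day 18 against 2.47, 1.06, 1.89 and 0 RPKM on day 12. Replicate 4 was the lowest unc22 library on each day, and the days overlapped in unc22 worms and not in zfp1 worms. The difference was 5.27 (SE 0.79, adjusted p = 4.54e-06 by limma), and in limma-voom it was 5.35 and did not pass (adjusted p = 0.217).

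SMED30029247 stood at 177, 227, 415 and 125 RPKM on day 18 under zfp1 RNAi, against 0.902, 1.02, 2.24 and 1.23 RPKM on day 12. In unc22 worms it stood at 18.0, 23.5, 21.4 and 8.61 RPKM on day 18 against 9.04, 1.96, 4.22 and 1.67 RPKM on day 12, which overlapped through replicate 4 of day 18 and replicate 1 of day 12. Its rise in control worms passed the test (log2 change 2.13, SE 0.53, adjusted p = 0.00723 by limma), and the difference was 4.78 (SE 0.75, adjusted p = 1.12e-05 by limma).

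The features with the largest lower difference under zfp1 RNAi changed far less in control worms than in zfp1 worms. SMED30032042 stood at 17.3 ± 12.9 RPKM on day 18 and 120 ± 30.8 RPKM on day 12 under zfp1 RNAi, and at 558 ± 48.3 and 580 ± 21.6 RPKM under unc22 (SD, n = 4 each; difference -3.01, SE 0.38, adjusted p = 1.86e-07 by limma). SMED30022805 stood at 12.3 ± 10.7 and 91 ± 21.5 RPKM under zfp1 RNAi, and at 300 ± 38.6 and 368 ± 5.69 RPKM under unc22, on days 18 and 12 (difference -2.97, SE 0.44, adjusted p = 4.13e-06 by limma). In unc22 worms neither change between these days passed the test, at -0.06 (SE 0.27, adjusted p = 0.927 by limma) for SMED30032042 and -0.30 (SE 0.31, adjusted p = 0.606 by limma) for SMED30022805. The unc22 libraries of SMED30022805 did not overlap between the days, at 246 to 339 RPKM on day 18 and 360 to 373 RPKM on day 12. The SE comes from a spread shared by all 48 libraries.

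The earlier interval of control worms, day 12 against day 6, shares its day 12 libraries with the later one, so its values are given side by side. It held 4074 called features (18.0%), 2413 higher (10.6%) and 1661 lower (7.33%), of which 10 (0.0441%) and 47 (0.207%) changed at least 2-fold. Over that interval the 1331 features that were higher on day 18 had a median log2 change of 0.181, and the 810 lower ones one of -0.088, beside a median of 0.0135 over all tested features. Summed, the 1331 took 21.8 ± 0.505, 24.3 ± 0.228 and 28.4 ± 0.293% of the table's RPKM on days 6, 12 and 18 of unc22 RNAi, and the 810 took 7.15 ± 0.153, 6.21 ± 0.145 and 4.72 ± 0.143% (SD, n = 4 each).

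The 2 largest early falls had ended at under 3 RPKM by day 12. SMED30005982 stood at 39.5 ± 3.32, 2.58 ± 0.414 and 1.14 ± 0.2 RPKM on days 6, 12 and 18 of unc22 RNAi (SD, n = 4). Its log2 change was -3.71 over the earlier interval (SE 0.21, adjusted p = 4.74e-17 by limma) and -0.90 over the later one (SE 0.21, adjusted p = 0.00393 by limma). SMED30018762 stood at 41.5 ± 6.59, 2.73 ± 0.423 and 2.96 ± 0.37 RPKM on those days, with log2 changes of -3.70 (SE 0.15, adjusted p = 4.08e-22 by limma) and 0.10 (SE 0.15, adjusted p = 0.735 by limma). The first fell over both intervals, and the day 18 and day 12 means of the second differed by less than the SD of its day 12 libraries.

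The largest early rise, that of SMED30015328, can be set beside its later change. The feature stood at 22.2 ± 3.36, 104 ± 4.77 and 78.8 ± 17.9 RPKM on days 6, 12 and 18 of unc22 RNAi (SD, n = 4). Its log2 change was 2.22 over the earlier interval (SE 0.21, adjusted p = 5.72e-10 by limma) and -0.42 over the later one, which did not pass (SE 0.21, adjusted p = 0.215 by limma). Under sox8 and pax5 RNAi the later change was -0.65 and -0.69, past the threshold in both (adjusted p = 0.0392 and 0.0281 by limma), and the differences from unc22, -0.22 (SE 0.3) and -0.26 (SE 0.3), did not pass. In zfp1 worms the later change of -0.24 did not pass (SE 0.21, adjusted p = 0.457 by limma), nor did its difference from unc22 of 0.18 (SE 0.3). The feature stood there at 38.3 ± 1.83 RPKM on day 12 and 32.4 ± 2.34 RPKM on day 18 (SD, n = 4).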

How the data were processed

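PolyA RNA of whole worms was sequenced after TruSeq library preparation, per the labels' protocols, which also mention sorted cells; each sample is labelled as whole worm. The deposited values are RPKM per feature and library. The submitters' processing notes name Bowtie, edgeR and CASAVA 1.8.2, with no role or order; the reference and annotation are not given in the sources used here. Whole reads and lengths were recovered from the steps of the RPKM values in all 28413 features (100.0% of values whole, tolerance 0.0001), giving 6894458 to 65663283 reads per library (median 23162610); floors cover counting error only, and 95% intervals come from the limma fit and its spread among libraries. Values were tested as log2(RPKM + 0.5) with limma 3.58.1 in R 4.3.3 (trend and robust options), all 48 libraries in 1 fit with a mean per group of RNAi and day, and two-sided p-values adjusted over 22667 features per contrast. Limma-voom on recovered reads was an alternative. Data were simulated for unc22 day 18 against day 12 with 200 of 22667 features changed and the same dispersion of 0.02 for all. There 20.9%, 65.7% and 93.9% of features changed 1.5-, 2- and 4-fold were recovered, and 4.76% of calls were unchanged features. Fewer features were changed there than the 2141 called in the data, so these shares hold for that setting only. Named features are the 2 largest called rises and 2 largest called falls per contrast, reaching a group mean of 1 RPKM or more and, within an RNAi group, without overlap between the days' libraries. A lack of gene names kept planned gene and marker lists unused. Features and groups of features were chosen with earlier results of these data known. Same-numbered replicates of unc22 days 12 and 18 did not deviate together (correlations -0.027 to -0.015), and other pairs of groups were not examined. Pairs of replicates differed by more than sampling noise (chi-square per degree of freedom 1.76 to 3.72), so all were kept. Other steps used scipy 1.17.1, pandas 2.3.3, numpy 2.4.6 and matplotlib 3.10.9 under Python 3.11.15.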

Additional observations from a re-analysis of the deposited data

Results flagged for a closer look

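In 2084 features the change between day 18 and day 12 differed between zfp1 and unc22 worms, and in 41 it differed between pax5 and unc22 worms, by a test of the difference itself (limma, adjusted p under 0.05). The named features among them differed under zfp1 RNAi by 3.22 (SMED30022734), 1.9 (SMED30013580), 5.27 (SMED30004187), 4.78 (SMED30029247), -3.01 (SMED30032042) and -2.97 (SMED30022805) on the log2 scale. Under pax5 RNAi the differences were -1.84 (SMED30010453) and -1.8 (SMED30019249).

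Single libraries stood far from the other 3 of their group in 7 of the 72 sets of 4 libraries examined, where chance gives about 1 in 20. SMED30022734 had 3.19 RPKM in zfp1 day 6 replicate 4, and SMED30013580 had 434 RPKM in zfp1 day 18 replicate 3, each the highest of its group. SMED30027656 had 12.1 RPKM in sox8 day 12 replicate 3, the highest of its group. SMED30021619 was highest at 21.2 RPKM in zfp1 day 6 replicate 2 and lowest at 5.8 RPKM in sox8 day 12 replicate 2. In unc22 worms SMED30019249 had 39.0 RPKM in day 18 replicate 2, above the other 3, and SMED30032042 had 547 RPKM in day 12 replicate 1, below the other 3.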

How the results depend on the processing

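The 4 named features of the unc22 comparison kept their direction and passed the threshold under all 21 alternatives tried for them, with adjusted p (limma) of 2.68e-11 to 4.59e-04 for SMED30022734, 7.39e-08 to 0.00161 for SMED30013580, 8.92e-07 to 0.0124 for SMED30027656 and 6.87e-06 to 0.00425 for SMED30021619. The number of features depended more on the setting. Leaving out 1 library gave 712 to 1315 higher and 360 to 745 lower features, with 13 to 20 and 5 to 17 past 2-fold; the lowest counts came without day 18 replicate 1 (712 and 360, of which 706 and 346 were among the original calls). Without day 12 replicate 1 the falls numbered 476, and without day 18 replicate 4 they numbered 525. Without day 18 replicates 1 and 4, an alternative chosen after seeing the data, 293 rose and 145 fell, 4 of them at least 2-fold, 211 and 72 were called in all 4 RNAi groups, and 27 pax5 differences passed. Falls numbered 1331 with quantile normalization, 1508 with library weights and 1666 without the factor between libraries (also chosen after seeing the data). Rises in these settings numbered 1257, 1995 and 939. Those falls called in all 4 RNAi groups numbered 399 with quantile normalization and 485 without the factor. Fitting only the groups compared gave 1726 higher and 1084 lower features. Falls of at least 2-fold numbered 41 at a pseudocount of 0.1 RPKM, 2 at 1 RPKM, 5 with a minimum mean of 2 RPKM and 48 with limma-voom. The sox8 difference gave 3 features when only the groups compared were fitted and 1 without the factor; the pax5 difference gave 18 with limma-voom. Leaving out 1 library gave 3051 to 3806 calls for unc22 day 12 against 6, 4444 to 5238 for zfp1, 1806 to 2359 for sox8 and 1682 to 2379 for pax5 (1682 without pax5 day 18 replicate 3), 1808 to 2132, 0 to 0 and 27 to 44 for the zfp1, sox8 and pax5 differences, and 363 to 473 higher and 128 to 194 lower in all 4 RNAi groups. With the replicate number as a block, 1303 features were higher and 782 lower. The replicate numbers showed no pairing of the unc22 libraries of days 12 and 18. The cause of these shifts was not tested. The planned edgeR and DESeq2 fits were not run, because the deposited unit is RPKM. Features between 0.5 and 2 RPKM rest on a median of 13.5 reads. Over all levels 20.9% of simulated 1.5-fold changes were recovered, in a simulation with 200 changed features.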
